A study of Homo sapiens with 16 samples.

Results

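The 4 HOX clusters were examined through the peaks of H3K27ac and H3K9ac that overlapped 4 fixed windows of the human genome (build hg19). The windows were HOXA at chr7:27100001-27280000, HOXB at chr17:46580001-46830000, HOXC at chr12:54310001-54470000 and HOXD at chr2:176920001-177080000, 750 kb in all. They held 161 of the 179689 peaks in the 8 lists, of which 83 lay in HOXB, 54 in HOXC, 13 in HOXA and 11 in HOXD. The windows belong to 38 HOX genes, 10 each for HOXA and HOXB and 9 each for HOXC and HOXD.

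Chromatin immunoprecipitation with sequencing (ChIP-seq) of both histone marks was carried out on epithelial ovarian cancer cell lines. A2780 is an endometrioid adenocarcinoma line that is sensitive to cisplatin (cPt), and A2780cis is its resistant derivative. CAOV4 is a high-grade serous line, and CAOV4cis was made from it by cPt treatment. Both resistant lines are labelled as cisplatin treated and were kept in medium with cPt. H3K27ac was measured in these 4 lines and in A2780 cells with an shRNA against MBD3, shMBD3.26 or shMBD3.232, after 1 week of knockdown and sorting of GFP-positive cells. MBD3 is a subunit of the NuRD chromatin remodelling and deacetylase complex. H3K9ac was measured in A2780 and A2780cis. The shRNA cells were compared with untransduced A2780 cells, since the cells with a control shRNA were not analysed here. Per the paper's methods, the shRNA cells were also engineered for inducible expression (Tet-on), drug-selected and given doxycycline to induce the knockdown. These steps, shRNA delivery, sorting and knockdown cannot be told apart in these comparisons. The lists hold no measure of the MBD3 level. Every condition had 1 library, so no difference below has a replicate check and no p-value was computed. The lists give the position and width of each peak but no signal, and the read depth behind them is unknown. The ovarian and epithelial markers of the lines were not looked up, since the annotation used here is of another build than the lists.

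HOX genes encode homeodomain transcription factors that give cells of the embryo their position along the body axis. They lie in clusters in which the order of the genes on the chromosome follows the order of their domains along the body, a property known as collinearity. In cells that do not use them the clusters are held silent by Polycomb complexes, while Trithorax-type complexes and histone acetylation accompany their activity, often as a broad domain that ends sharply within the cluster. In the female reproductive tract HOXA9, HOXA10, HOXA11 and HOXA13 pattern the oviduct, the uterus, the cervix and the upper vagina in this order. H3K27ac marks active promoters and enhancers, and H3K9ac marks active promoters and many of the same enhancers.

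All 38 genes were found in RefSeq (GRCh38.p14), which was used for names, gene order and sequences and for no coordinate. Along increasing coordinates the HOXA window runs from HOXA2 to HOXA13, the HOXB window from HOXB1 to HOXB13, the HOXC window from HOXC13 to HOXC4 and the HOXD window from HOXD13 to HOXD1. Peaks were not assigned to single genes, so the ends of a window are named by these genes. HOXB1 is a hindbrain patterning gene, HOXB13 is needed in the prostate and distal colon, HOXC13 acts in hair follicles and HOXD13 in the digits.

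A promoter of 300 bases was matched for 20 of the 38 genes. The others are HOXA5, HOXB2 to HOXB9, HOXB13, HOXC6, HOXC8 to HOXC13 and HOXD9. The promoters of 4 genes at ends of the clusters are shown, as examples, chosen after the values were seen, of starts that differ in CpG number, with 1 from each cluster. Capitals mark CpG dinucleotides, and the sequences are from RefSeq (GRCh38.p14), 5′ to 3′ on the strand of the gene.
HOXA13: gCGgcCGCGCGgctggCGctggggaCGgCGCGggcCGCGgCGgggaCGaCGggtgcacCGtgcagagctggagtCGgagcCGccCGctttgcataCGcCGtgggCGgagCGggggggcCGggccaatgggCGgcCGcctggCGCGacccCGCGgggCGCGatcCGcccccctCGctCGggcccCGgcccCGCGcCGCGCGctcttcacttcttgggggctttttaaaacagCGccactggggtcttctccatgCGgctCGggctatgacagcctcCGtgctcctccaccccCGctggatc
HOXB1: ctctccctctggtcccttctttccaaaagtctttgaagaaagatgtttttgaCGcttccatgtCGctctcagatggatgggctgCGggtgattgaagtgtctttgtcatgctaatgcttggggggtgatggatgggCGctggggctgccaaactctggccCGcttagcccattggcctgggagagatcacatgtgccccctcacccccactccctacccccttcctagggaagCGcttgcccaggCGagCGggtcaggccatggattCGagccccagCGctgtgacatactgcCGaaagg
HOXC4: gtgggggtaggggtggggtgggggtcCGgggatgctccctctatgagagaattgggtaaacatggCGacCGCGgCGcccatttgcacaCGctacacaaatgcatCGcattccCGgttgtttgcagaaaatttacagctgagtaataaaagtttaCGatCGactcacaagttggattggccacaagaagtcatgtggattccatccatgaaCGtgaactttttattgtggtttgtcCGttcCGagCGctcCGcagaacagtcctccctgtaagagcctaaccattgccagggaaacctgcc
HOXD13: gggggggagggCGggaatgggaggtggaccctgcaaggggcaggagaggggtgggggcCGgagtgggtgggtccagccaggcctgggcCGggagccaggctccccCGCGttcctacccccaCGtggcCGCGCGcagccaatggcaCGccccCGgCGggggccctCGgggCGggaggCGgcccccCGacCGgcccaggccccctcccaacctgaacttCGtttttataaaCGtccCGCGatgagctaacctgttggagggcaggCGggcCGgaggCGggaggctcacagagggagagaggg
HOXA13 held 44 CpGs, the most of the 20 promoters, HOXD13 held 24, HOXC4 held 15 and HOXB1 held 11. The median of the 20 promoters was 22.5 CpGs, against 14.0 over all 27305 promoters in the table. The ratio of observed to expected CpGs was over 0.6 in 18 of the 20 promoters, or 90.0%, and in 48.9% of all promoters. The CCAAT motif, searched on both strands, was found in 17 of the 20, or 85.0%, and in 35.7% of all promoters. TATAAA was found in 4 of the 20 (20%, against 12.0%), and TGATTNAT, a motif bound by HOX factors with their PBX partners, in 2 of the 20 (10%, against 2.94%). Promoters of the same cluster are related and partly shared, as the HOXC4 and HOXC5 entries hold the same sequence. The windows with few peaks in A2780 held promoters with many CpGs, such as HOXA13, and with few, such as HOXA2 with 11 and HOXD4 with 4. For HOXB, HOXB1 was the 1 promoter matched, so CpG number and coverage were not compared between clusters.

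The clusters also hold microRNA genes, of which the miR-196 and miR-10 families are known to target HOX transcripts. Their mature sequences (RefSeq, GRCh38.p14) are shown because the same seed recurs in 3 of the clusters. Capitals mark the seed, bases 2 to 8.
hsa-miR-196b-5p (HOXA): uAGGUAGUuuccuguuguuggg
hsa-miR-196a-5p (HOXB and HOXC): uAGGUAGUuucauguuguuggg
hsa-miR-10a-5p (HOXB): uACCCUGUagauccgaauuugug
The seed AGGUAGU is common to MIR196B in HOXA, MIR196A1 in HOXB and MIR196A2 in HOXC, so a copy lies both in the cluster with few peaks and in the clusters with broad coverage.

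The 4 windows differed widely in how much of them was covered by peaks. HOXC was covered over 40.2% to 57.9% of its length by H3K27ac in the 6 lists and HOXB over 25.5% to 40.8%. HOXD was covered over 0% to 11.5% and HOXA over 0% to 5.22%. Taken over all 4 windows, H3K27ac covered 22.3% in A2780, 24.1% in A2780cis, 19.6% with shMBD3.26, 20.2% with shMBD3.232, 24.9% in CAOV4 and 27.5% in CAOV4cis. H3K9ac covered 16.9% in A2780 and 12.9% in A2780cis. For scale, 12901 tiles of 200 kb were laid over the chromosomes with peaks, on each up to its last listed peak in any list. Sequence beyond that peak was not tiled. These tiles were covered over a mean of 3.04% to 3.83% by H3K27ac and of 2.11% to 2.14% by H3K9ac. The HOXC window was more densely covered than nearly all of them, since 0.202% to 1.06% of tiles reached its share in the 8 lists. For HOXB this was 0.891% to 3.02% of tiles. The windows are 160 to 250 kb long, so the tiles match them only roughly in length.

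**Figure D1:**
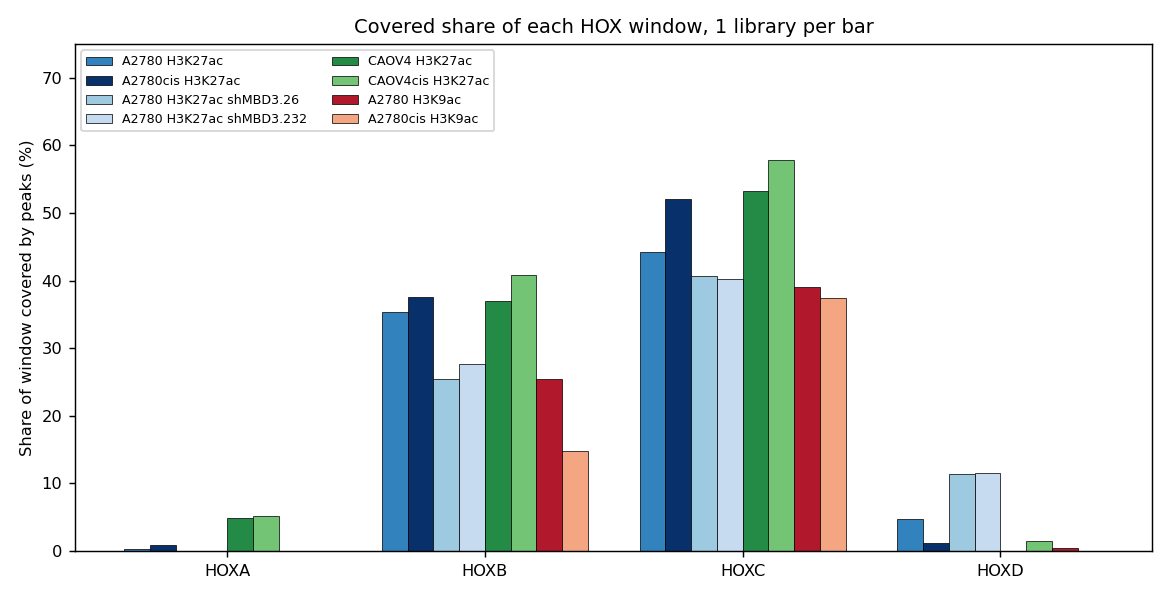
Share of each HOX window covered by peaks, in percent, with a bar for each of the 8 lists (1 library each, no error bars). HOXB and HOXC are broadly covered in every list, with shares from 14.8% to 57.9%, while HOXA stays at or below 5.22% and HOXD at or below 11.5%.

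**Figure D2:**
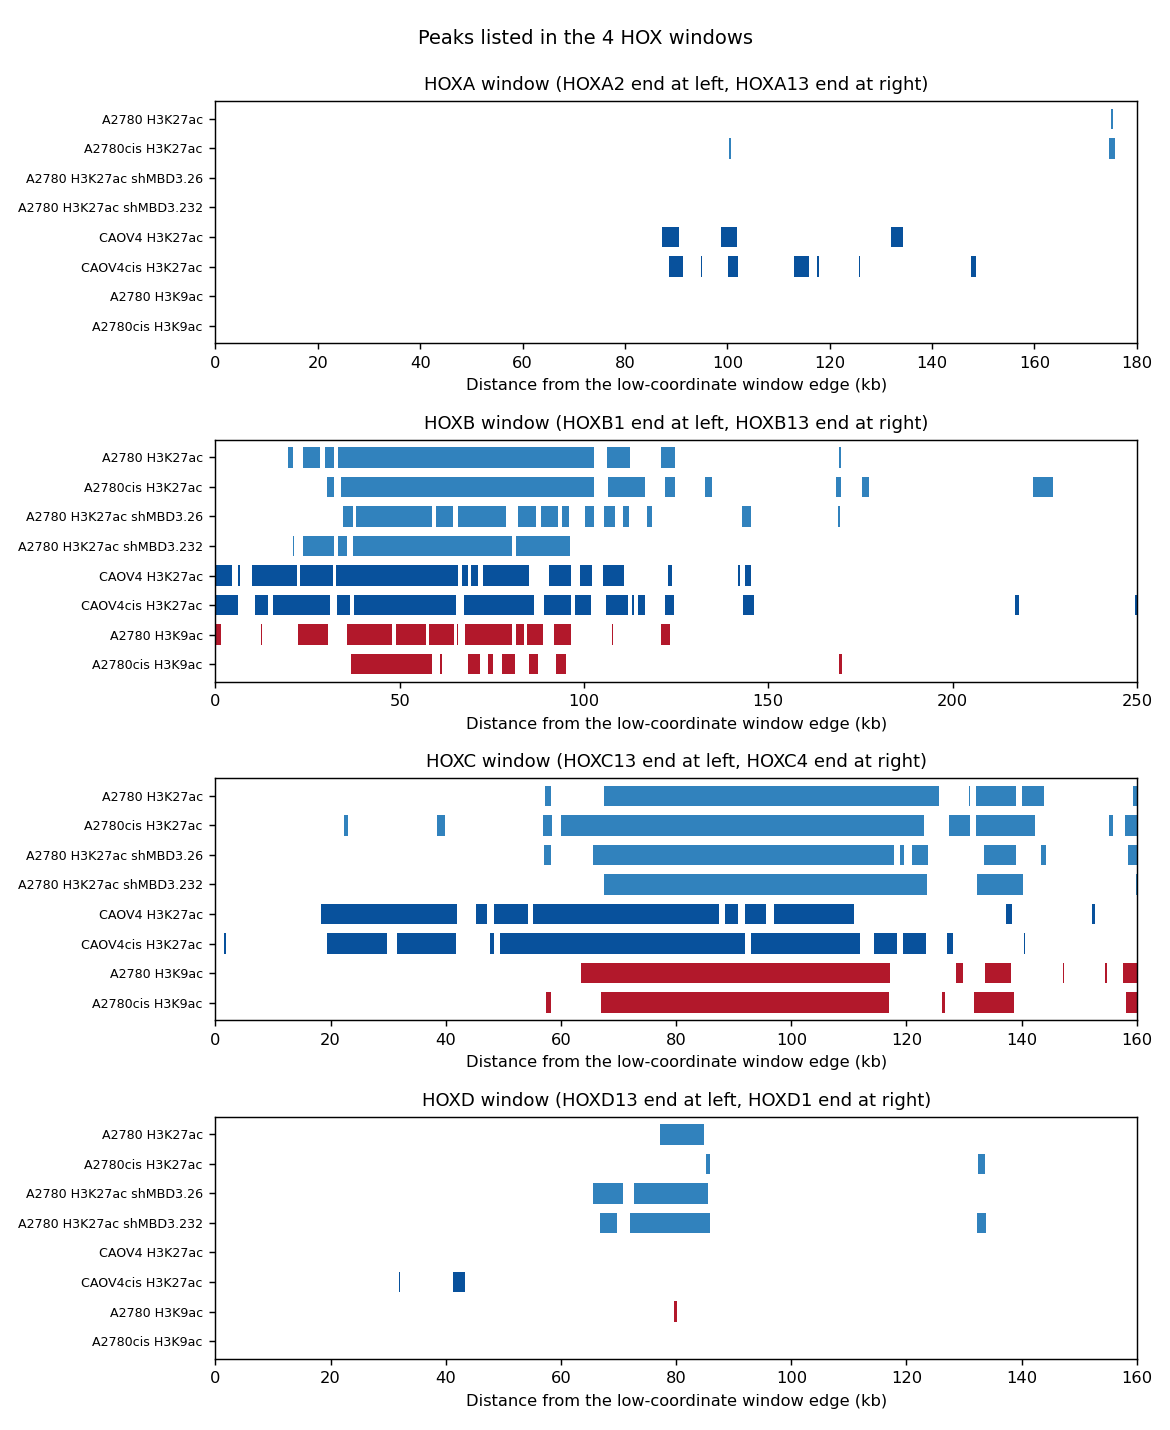
Every listed peak in the 4 HOX windows, drawn by its distance in kb from the low-coordinate edge of the window, with a row for each list (light blue for H3K27ac in A2780-derived cells, dark blue for H3K27ac in CAOV4 and CAOV4cis, red for H3K9ac). The HOXB peaks crowd into the HOXB1 end in all 8 lists, and the HOXC peaks of CAOV4 and CAOV4cis begin closer to the HOXC13 end than those of A2780-derived cells.

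The HOXA window, which holds the genes that pattern the Müllerian tract, was nearly empty in A2780-derived cells. A2780 had 1 H3K27ac peak of 0.4 kb (chr7:27275001-27275400), close to the high-coordinate edge of the window. A2780cis had a peak of 1.2 kb at the same place (chr7:27274601-27275800) and another of 0.4 kb. With shMBD3.26 and with shMBD3.232 no H3K27ac peak was listed, and no H3K9ac peak was listed in A2780 or A2780cis. CAOV4 had 3 H3K27ac peaks that covered 8.8 kb, and CAOV4cis had 7 that covered 9.4 kb. The widest was 3.4 kb in CAOV4 (chr7:27187201-27190600) and 3.0 kb in CAOV4cis (chr7:27213001-27216000). The first 87.2 kb at the HOXA2 end were free of peaks in all 8 lists, and so was 91.2% of the window. The 200 kb on either side of it were covered over at most 3.9%. A window without a listed peak may still carry acetylation below the threshold of the authors' peak calling.

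The HOXB window was covered on one side. In the 125 kb at the HOXB1 end, H3K27ac covered 70.4% in A2780, 66.7% in A2780cis, 48.6% with shMBD3.26, 55.2% with shMBD3.232, 72.3% in CAOV4 and 78.2% in CAOV4cis. In the 125 kb at the HOXB13 end it covered 0% to 8.32%, with the highest share in A2780cis. H3K9ac showed the same split, with 50.7% and 29.0% at the HOXB1 end in A2780 and A2780cis and 0% and 0.64% at the HOXB13 end. A stretch of 39.8 kb on the HOXB13 side (chr17:46757201-46797000) had no H3K27ac peak in any of the 6 lists. The genes were not placed within the window, and they need not be spread evenly over it. The split can therefore not be read as a border between HOXB genes.

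Peaks no more than 5 kb apart were joined into domains, and the domain with the most covered length was taken as the main domain of a window. In HOXB the main H3K27ac domain was 93.0 kb wide in A2780 (chr17:46599601-46692600), 86.2 kb in A2780cis, 83.8 kb with shMBD3.26 and 75.2 kb with shMBD3.232. It was 97.4 kb wide in CAOV4 and 141.0 kb in CAOV4cis (chr17:46555601-46696600). In these 2 lines the domain began 12.4 and 24.4 kb before the window, while in the A2780-derived lists it began 19.6 to 34.6 kb inside it. This contrast rests on the joining distance. When gaps of up to 2 kb were joined, the domain of CAOV4 began at 46589801 and that of CAOV4cis at 46590601, both inside the window but still before the starts in the A2780-derived lists (46603801 to 46614601), and its width was 54.6 kb in CAOV4cis and 44.2 kb with shMBD3.26. The end of the domain towards HOXB13 lay between 46665000 and 46698400, a span of 33.4 kb over the 6 lists. A2780 and A2780cis each had most of this domain in a single peak of 69.6 and 68.8 kb, and both peaks ended at 46682800. With shMBD3.26 the widest peak was 20.6 kb, with 11 peaks in the main domain, and with shMBD3.232 it was 43.2 kb. The widest HOXB peak was 33.0 kb in CAOV4 and 27.6 kb in CAOV4cis. The 6 H3K27ac lists shared 42.4 kb of HOXB, of which the longest run was 20.6 kb (chr17:46618201-46638800), and all 8 lists shared 25 kb.

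The HOXC window had the highest covered share in each of the 8 lists, and the lines differed there in where the domain began. In the A2780-derived H3K27ac lists the main domain began between 54366801 and 54377401 and was 56.2 to 85.6 kb wide. In CAOV4 it was 92.4 kb wide (chr12:54328401-54420800), and in CAOV4cis the main domain was 80.4 kb wide (chr12:54357601-54438000), with a further domain of 22.4 kb before it (chr12:54329401-54351800). These widths rest on the joining distance. When gaps of up to 2 kb were joined, the main domain was 65.6 kb wide in CAOV4 and 64.4 kb in CAOV4cis. In the A2780-derived lists it was then 56.2 to 66.2 kb wide. It began at 54355201 in CAOV4 and 54357601 in CAOV4cis, still before the starts in the A2780-derived lists. In the 80 kb at the HOXC13 end, H3K27ac covered 17.0% in A2780, 29.5% in A2780cis, 19.5% with shMBD3.26 and 15.8% with shMBD3.232, against 70.2% in CAOV4 and 65.5% in CAOV4cis. In the 80 kb at the HOXC4 end, it covered 71.5%, 74.5%, 61.8% and 64.8% in the same A2780-derived lists, against 36.2% in CAOV4 and 50.2% in CAOV4cis. On both sides, the 4 A2780-derived lists and the 2 CAOV4-derived lists did not overlap in these shares. Of the 5805 tiles of 200 kb covered over at least 2% in any of the 6 lists, 28.3% had both CAOV4-derived lists above all 4 A2780-derived lists and 31.7% had both below, so such a split was common between the lines. The 4 A2780-derived lists come from 1 cell line and are not independent.

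The sequence next to HOXC followed the same split. In the 200 kb before the HOXC13 end, H3K27ac covered 0.9% to 2.2% in the A2780-derived lists, against 23.6% in CAOV4 and 20.8% in CAOV4cis. In the 200 kb beyond the HOXC4 end it covered 45.1% to 57.2% in the A2780-derived lists, against 22.3% and 35.4%. The difference in HOXC coverage thus went on past the window edges on both sides.

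The 4 A2780-derived lists shared an H3K27ac run of 50.4 kb in HOXC (chr12:54377401-54427800). A2780 listed it within a peak of 58.2 kb and A2780cis within a peak of 63.0 kb. The widest HOXC peak was 52.2 kb with shMBD3.26, 56.2 kb with shMBD3.232, 32.2 kb in CAOV4 and 42.6 kb in CAOV4cis. The 6 H3K27ac lists shared 38.8 kb, with runs of 20 kb (chr12:54377401-54397400) and 13.8 kb (chr12:54407001-54420800) as the longest. The H3K9ac lists covered each base of these 38.8 kb as well, so the length shared by all 8 lists was also 38.8 kb.

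The HOXD window had few peaks, and those of A2780-derived cells lay mainly in the middle of the window. A2780 had 1 H3K27ac peak of 7.6 kb (chr2:176997201-177004800). A2780cis had a peak of 0.6 kb (chr2:177005201-177005800) just beyond the end of the A2780 peak and another of 1.2 kb (chr2:177052401-177053600) towards HOXD1. With shMBD3.26 a domain of 20 kb was listed (chr2:176985601-177005600) and with shMBD3.232 a domain of 19.0 kb (chr2:176986801-177005800), and their widest peaks were 13.0 and 13.8 kb. CAOV4 had no H3K27ac peak in the window, and CAOV4cis had 2, of 0.2 and 2.2 kb, closer to HOXD13. H3K9ac was listed over 0.6 kb in A2780 and not at all in A2780cis. The 200 kb on either side were covered over at most 1.8% in all 8 lists.

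To set differences in the HOX windows against the rest of the genome, the covered length of a window was compared between lists, and the same was done for tiles of 200 kb. A window or tile was compared if peaks covered at least 2% of it in either list, and was called if the covered lengths differed at least 1.5-fold. The floor of 2% was chosen after the lists were seen. With 1 library a condition, a call describes these lists and not the condition.

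The first question is whether the HOX domains differed between the sensitive line and its resistant derivative. For H3K27ac, HOXB was covered over 88.4 kb in A2780 and 93.8 kb in A2780cis, and HOXC over 70.8 and 83.2 kb. Neither reached 1.5-fold. HOXD was covered over 7.6 kb in A2780 and 1.8 kb in A2780cis, which is 4.22-fold less, and no base was covered in both. Of the 4714 tiles compared, 24.0% were called lower in A2780cis and 20.6% higher, so a call of this kind was common in the genome. The HOXD call is lost with a floor of 5% in place of 2%. HOXA stayed under the floor, with 0.4 and 1.6 kb. In HOXB, 77.9% of the length covered in either line was covered in both, and in HOXC 76.6%, against 44.4% over all chromosomes. The median was 50.2% in tiles covered over at least 20% in either list, with an upper quartile of 62.0%. The longest stretch listed in A2780cis but not in A2780 was a 7.4 kb extension of the HOXC domain towards HOXC13 (chr12:54370001-54377400). In HOXB it was a separate peak of 5.4 kb towards HOXB13 (chr17:46801801-46807200). At the HOXB1 end, a 4.6 kb peak of A2780 (chr17:46603801-46608400) had no counterpart in A2780cis or with shMBD3.26, whereas this stretch was covered with shMBD3.232 and in CAOV4 and CAOV4cis.

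For H3K9ac, the HOXB window was covered over 63.4 kb in A2780 and 37.0 kb in A2780cis, which is 1.71-fold less. Of the 3891 tiles compared, 28.8% were called lower in A2780cis. Among the 339 tiles covered over at least 20% in either list, 27.7% were called lower, so HOXB was 1 of many regions with such a difference, and it is not called at a ratio of 2. Of the H3K9ac length in A2780, 30.4 kb was not covered in A2780cis, and 4.0 kb was covered in A2780cis alone. The main H3K9ac domain of HOXB was 60.8 kb wide in A2780 (chr17:46615801-46676600) and 24.6 kb in A2780cis (chr17:46616801-46641400). A further domain of 26.8 kb in A2780cis (chr17:46648401-46675200) held 5 peaks that covered 13.6 kb of it. The main domain of A2780cis was thus narrower mainly because a gap of 7.0 kb, over the joining distance, split it from this domain. Covered length was lower as well, with 50.6 kb in the main domain of A2780 against 22.6 and 13.6 kb in these 2 domains of A2780cis. The longest stretch of A2780 without a counterpart was an 8.2 kb peak at the HOXB1 end (chr17:46602401-46610600), which spans the 4.6 kb H3K27ac peak that A2780cis also lacked. In HOXC, H3K9ac covered 62.6 kb in A2780 and 59.8 kb in A2780cis. Of the length covered in either line, 85.5% was covered in both in HOXC and 49.0% in HOXB, against 34.7% over all chromosomes. In tiles covered over at least 20% in either list the median was 39.3%, with quartiles of 12.1% and 51.7%. The main HOXC domain was 53.8 kb wide in A2780 and 50 kb in A2780cis, and its ends towards HOXC4 lay 0.2 kb apart. Towards HOXC13 it began at 54373401 in A2780 and at 54377001 in A2780cis, with 3.6 kb there listed in A2780 alone (chr12:54373401-54377000). At this border the 2 marks thus differed in opposite directions, as H3K27ac reached further towards HOXC13 in A2780cis.

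In the other pair of sensitive and resistant lines, H3K27ac covered 92.4 kb of HOXB in CAOV4 and 102.0 kb in CAOV4cis, 85.2 and 92.6 kb of HOXC, and 8.8 and 9.4 kb of HOXA. None of these 3 windows reached 1.5-fold, while 26.5% of the 4262 tiles were called higher and 18.4% lower in CAOV4cis. HOXD, with 0 and 2.4 kb, stayed under the floor. The median tile was covered over 0.6 percentage points more in CAOV4cis. Among tiles covered over at least 20% in either list, the median was 2.2 points more. HOXB was covered over 3.84 and HOXC over 4.62 points more. In HOXB, 78.0% of the length covered in either line was covered in both, and in HOXC 75.3%, against 44.8% over all chromosomes. The median was 53.6% in tiles covered over at least 20% in either list, with an upper quartile of 62.5%. In HOXA the share covered in both was 24.7%, as the peaks of CAOV4 and CAOV4cis shared 3.6 kb. In HOXC, the longest stretches listed in CAOV4cis but not in CAOV4 were 2 peaks of 4.0 kb each at the HOXC4 end (chr12:54424401-54428400 and chr12:54429401-54433400).

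The next question is whether the HOX domains differed in A2780 cells with an shRNA against MBD3. Both comparisons use the same A2780 list, so their values are given side by side. HOXD was covered over 7.6 kb in untransduced A2780, over 18.2 kb with shMBD3.26 and over 18.4 kb with shMBD3.232, which is 2.39-fold and 2.42-fold more. In the tiles, 5.47% of 4390 were called higher with shMBD3.26 and 4.12% of 4272 with shMBD3.232, while 28.2% and 31.1% were called lower. The A2780 peak of 7.6 kb lay wholly inside the covered length of both shRNA lists. Most of the further length lay on its HOXD13 side. With shMBD3.26 it included 4.6 kb that led straight up to the A2780 peak (chr2:176992601-176997200) and a separate peak of 5.2 kb (chr2:176985601-176990800). With shMBD3.232 the matching stretches were 5.2 kb (chr2:176992001-176997200) and 3.0 kb (chr2:176986801-176989800). With shMBD3.232 a further peak of 1.6 kb was listed towards HOXD1 (chr2:177052201-177053800), where A2780cis had its peak of 1.2 kb.

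HOXB and HOXC had a shorter covered length with either shRNA, without reaching 1.5-fold. HOXB was covered over 88.4 kb in untransduced A2780, 63.8 kb with shMBD3.26 and 69.0 kb with shMBD3.232. HOXC was covered over 70.8, 65.0 and 64.4 kb in the same order. As shares of the window, the difference from untransduced A2780 was -9.84 and -7.76 percentage points for HOXB and -3.62 and -4.0 points for HOXC. In tiles covered over at least 20% in either list, the median difference was -7.4 points with shMBD3.26 and -4.4 points with shMBD3.232, so shorter covered lengths were common in these lists. Of the HOXB length covered in A2780, 66.5% was also covered with shMBD3.26 and 76.0% with shMBD3.232. With shMBD3.232 the longest stretches without coverage lay at the HOXB13 side of the A2780 domain, 6.6 kb (chr17:46676201-46682800) and 6.4 kb (chr17:46686201-46692600). In HOXC 87.0% and 89.5% of the A2780 length was also covered. Of the length covered in either list, 63.0% of HOXB was covered in both for shMBD3.26 and 74.5% for shMBD3.232. For HOXC these shares were 83.0% and 88.3%. Over all chromosomes they were 56.2% and 57.0%, and the medians in tiles covered over at least 20% in either list were 59.4% and 62.1%. Neither window thus shared less between these lists than was usual in the genome.

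The lines A2780 and CAOV4, which stem from tumors of different histology, had peaks at partly different places in each window. HOXA was covered over 0.4 kb in A2780 and 8.8 kb in CAOV4, and HOXD over 7.6 and 0 kb. Of the 5099 tiles compared, 29.5% were called higher in CAOV4 and 47.7% lower, so calls in either direction were frequent. Both the HOXA and the HOXD call are lost with a floor of 5%. HOXB (88.4 and 92.4 kb) and HOXC (70.8 and 85.2 kb) were within 1.5-fold in covered length. In HOXC, 28.8 kb was covered in A2780 alone, 43.2 kb in CAOV4 alone and 42.0 kb in both, which is 36.8% of the length covered in either. In HOXB this share was 64.7%. Over all chromosomes it was 22.1%, and among the 957 tiles covered over at least 20% in either list the median was 20%, with quartiles of 2.76% and 36.7%. A low overlap was thus the rule between these lists, with HOXC at and HOXB above the upper quartile. The widest stretch listed in CAOV4 alone was a peak of 23.6 kb at the HOXC13 end (chr12:54328401-54352000), followed by 9.2 kb that adjoined the A2780 domain (chr12:54368201-54377400). The widest stretch listed in A2780 alone was 14.8 kb at the HOXC4 end (chr12:54420801-54435600). It fell in a gap of 26.4 kb between CAOV4 domains (chr12:54420801-54447200), of which A2780 covered 76.5%. No other gap of over 10 kb between domains in a window was covered to that extent in the compared list. In HOXB the widest stretch of CAOV4 alone was 9.8 kb at the HOXB1 end (chr17:46589801-46599600).

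**Figure D3:**
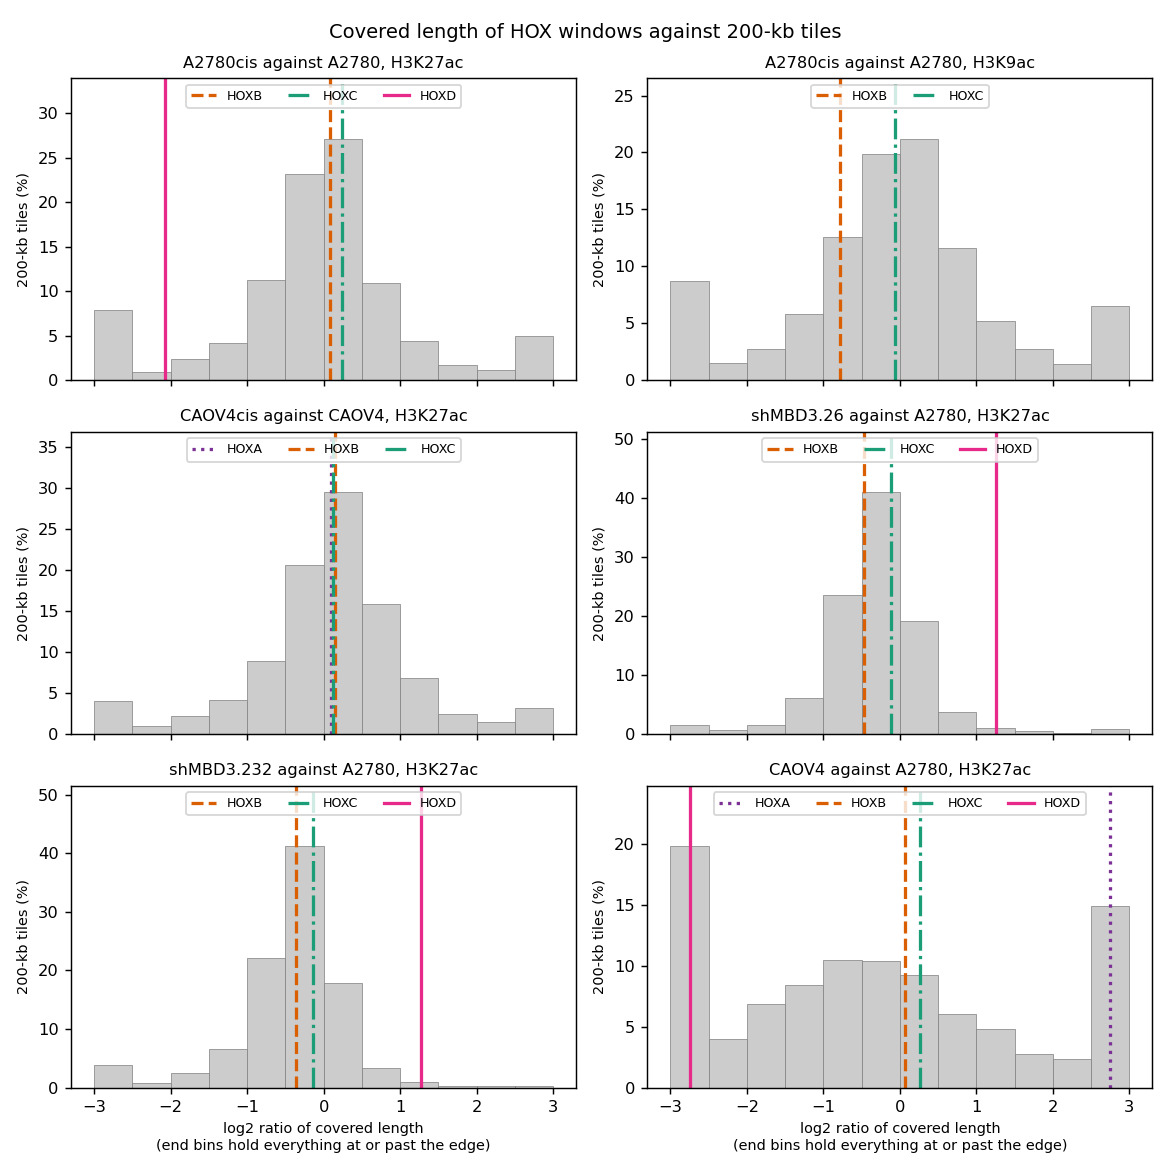
Distribution over 200-kb tiles of the log2 ratio of covered length between lists, in percent of the tiles compared, for the 6 comparisons, with the HOX windows over the 2% floor as vertical lines. HOXB and HOXC lie near the middle of the tiles in most comparisons, while HOXD lies on the left for A2780cis (4.22-fold less) and CAOV4 and on the right for shMBD3.26 and shMBD3.232 (2.39-fold and 2.42-fold more). The end bins hold tiles at or past the edge, among them those without a peak in a list.

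Single peaks were also looked up in the compared list, where a shared base counted as a partner. Over the 12 lookups of the 6 comparisons, 83 peaks of the HOX windows had no partner, where a peak counts once for each lookup. Of the A2780 H3K27ac peaks, 3 of 15 had no partner in A2780cis (20%, exact 95% interval 4.33 to 48.1), against 43.0% of all A2780 peaks. Of the A2780cis peaks, 9 of 20 had no partner in A2780 (45%, 23.1 to 68.5), against 27.8% of all. For H3K9ac it was 11 of 20 A2780 peaks (55.0%, 31.5 to 76.9), against 55.6%, and 3 of 13 A2780cis peaks (23.1%, 5.04 to 53.8), against 38.9%. In the CAOV4 pair it was 6 of 26 CAOV4 peaks (23.1%, 8.97 to 43.6), against 40.9%, and 16 of 34 CAOV4cis peaks (47.1%, 29.8 to 64.9), against 44.5%. Of the A2780 peaks, 6 of 15 had no partner with shMBD3.26 (40%, 16.3 to 67.7), against 40% of all, and 7 of 15 with shMBD3.232 (46.7%, 21.3 to 73.4), against 42.6%. Of the shMBD3.26 peaks it was 3 of 22 (13.6%, 2.91 to 34.9), against 25.3%, and of the shMBD3.232 peaks 3 of 11 (27.3%, 6.02 to 61.0), against 17.0%. Between A2780 and CAOV4 it was 6 of 15 A2780 peaks (40%, 16.3 to 67.7), against 62.3%, and 10 of 26 CAOV4 peaks (38.5%, 20.2 to 59.4), against 53.5%. In each of the 12 lookups the interval took in the share of the whole list, so the number of HOX peaks was too small to tell them from other peaks by this measure. The intervals cover counting error only.

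H3K9ac lay almost wholly inside H3K27ac in the HOX windows. In A2780, 90.4% of the H3K9ac length in the 4 windows was also covered by H3K27ac, and in A2780cis 99.2%. Over all chromosomes these shares were 78.7% and 87.1%. Within HOXB the shares were 92.7% and 99.5%, and within HOXC 87.9% and 99.0%. In the other direction, 68.4% of the H3K27ac length of the windows was covered by H3K9ac in A2780 and 53.2% in A2780cis, against 44.0% and 50.6% over all chromosomes. The difference between the lines lay mainly in HOXB, where the share was 66.5% in A2780 and 39.2% in A2780cis. In HOXC it was 77.7% and 71.2%. In HOXB of A2780cis, therefore, H3K27ac covered 93.8 kb and H3K9ac 37.0 kb, of which 36.8 kb carried both marks. The 0.6 kb of H3K9ac in HOXD of A2780 lay inside the 7.6 kb H3K27ac peak, and in HOXA neither line had an H3K9ac peak.

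**Figure D4:**
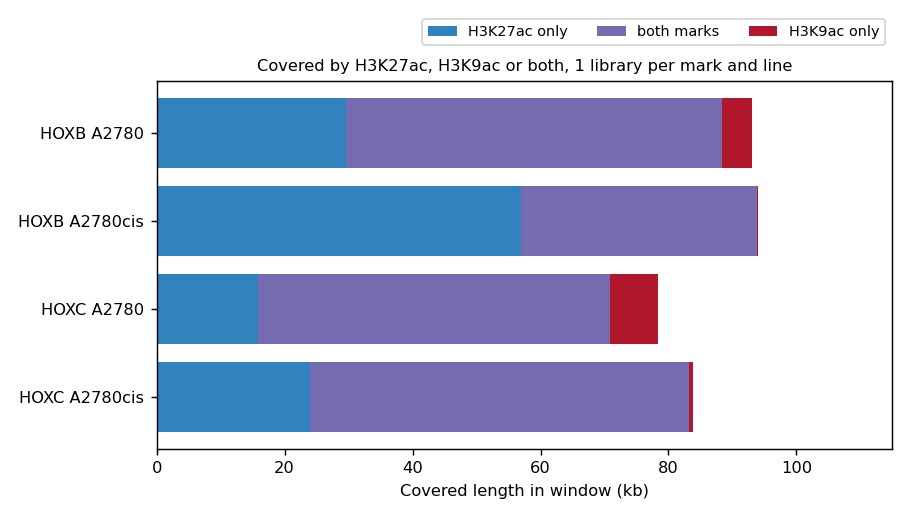
Length of the HOXB and HOXC windows in kb covered by H3K27ac alone, by both marks and by H3K9ac alone, in A2780 and A2780cis (1 library per mark and line, no error bars). In HOXB the length with both marks is 58.8 kb in A2780 and 36.8 kb in A2780cis, while in HOXC it is 55.0 and 59.2 kb.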

How the data were processed

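H3K27ac was measured by ChIP-seq in 6 conditions and H3K9ac in 2, with 1 library each. The 8 input samples were not analysed here. Mononucleosomes carried a D. melanogaster spike-in. Per their methods, the authors used Bowtie2 for alignment, a quantile normalization in R and then MACS2 for peaks, with a list for each sample. The submitters' processing notes name hg19. The deposited lists hold start and end of each peak, and the deposited score, which is always 0, was left aside. On the standard chromosomes every boundary is a multiple of 200 bp and neighbouring peaks are separated by 1000 bp or more, so widths and borders are no finer than this. No list has a peak on chromosomes 20 to 22. The lists held 15365 to 28662 peaks, and 6 off the standard chromosomes were left out.

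Peaks were clipped to the windows, and covered lengths, joined domains (gaps of up to 5 kb), shared lengths and partners (at least 1 shared bp) were computed with Python 3.11.15, numpy 2.4.6, pandas 2.3.3 and SciPy 1.17.1. Figures were drawn with matplotlib 3.10.9. The code for calls and partners was checked on altered copies of the A2780 H3K27ac list. In these, randomly chosen peaks, or all peaks of randomly chosen tiles, had been removed. Such a check covers the code and not noise in the lists. The windows, genes and measures were chosen with earlier results of these data known. For the promoters, the first RefSeq entry per symbol was used. For the microRNA genes, all listed mature entries were read. Stretches are named where they are the widest peak of a list in a window or among the longest covered in 1 list of a pair, as are gaps of over 10 kb that the other list covers. The start sites of the HOX genes, their partner and regulator genes and the cell type markers need an hg19 annotation and were not analysed here.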

Additional observations from a re-analysis of the deposited data

Results flagged for a closer look

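Some differences between a resistant line and its parental line had opposite signs in the 2 pairs of lines or for the 2 marks. None of these contrasts was tested, as each rests on 1 library a condition. The covered share of HOXD by H3K27ac was -3.62 percentage points in A2780cis minus A2780 and 1.5 points in CAOV4cis minus CAOV4. The covered share of HOXB in A2780cis minus A2780 was 2.16 points for H3K27ac and -10.6 points for H3K9ac. For HOXC the same difference was 7.75 points for H3K27ac and -1.75 points for H3K9ac. The A2780cis lists hold fewer peaks than the A2780 lists, 20899 against 28662 for H3K27ac and 15365 against 22782 for H3K9ac. When each list was limited to its 15365 widest peaks, the differences in A2780cis minus A2780 were 2.32 and -10.2 points for HOXB, 6.88 and -1.38 points for HOXC, and -4.75 points for HOXD by H3K27ac.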

How the results depend on the processing

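With 1 library per condition, no result has a replicate check. No paired analysis was possible because each condition had 1 list and no test was run. The pooled share of the 4 windows over the 8 lists was 21.0%, and it was 20.1% with peaks over 2 kb, 15.4% with windows extended by 50 kb on each side and 22.0% with gaps of up to 2 kb counted as covered. Called windows for A2780cis against A2780 were 1 for H3K27ac (HOXD) and 1 for H3K9ac (HOXB). The H3K27ac call became 0 with a floor of 5% and 2 with no floor, and the H3K9ac call became 0 with a ratio of 2 and 2 with no floor. For CAOV4cis against CAOV4 the count was 0, and 1 with peaks over 2 kb (HOXA, lower) or with no floor (HOXD, higher). For either shRNA against A2780 the count was 1 (HOXD), and 2 with no floor. For CAOV4 against A2780 it was 2, and 0 with a floor of 5%. The floors of 5% and none were added after seeing the data. The higher HOXD coverage with both shRNAs held under the 7 alternatives tried for each. Peaks without a partner numbered 83 over the 12 lookups, 55 when a peak within 5 kb counted and 27 for peaks over 2 kb. The windows held 82 domains, and 52 with the wider joining distance tried, which left 11 of the 26 main domains with the same borders, while joining gaps of up to 2 kb left 15. In HOXA and HOXD a few kb decide a call, and peaks under the authors' threshold are not seen. The start sites, partner genes and markers were not run.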
